A study of Caenorhabditis elegans with 2 samples.

Results

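The histone genes of *Caenorhabditis elegans* were examined for occupancy by eGFP-tagged SKN-1 in L4 larvae. Members were the protein-coding genes named *his-* plus a number, together with *htz-1*, and numbered 73 of 19973 protein-coding genes on the nuclear chromosomes. They were taken from the WBcel235 annotation, the same assembly as ce11. A gene was counted as clustered when another member started within 5000 bp of its own start, which placed 67 genes in 15 clusters of 2 to 13 genes and left 6 isolated. The isolated genes were *his-24*, *his-71*, *his-72*, *his-73*, *his-74* and *htz-1*.

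The series holds chromatin immunoprecipitation sequencing (ChIP-seq) of 1 group of 2 biological replicates, both whole L4 larvae of mixed sex from strain OP342. The strain carries the *unc-119(ed3)* mutation on chromosome III and the integrated transgene wgIs342, which supplies SKN-1 fused to eGFP. The labels do not give the promoter of the transgene, and whole animals mix all tissues. No worms without the tag and no second condition are among the samples, so all comparisons are between genes, between regions and between replicates.

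Histones are the proteins around which DNA is wound into nucleosomes. H2A, H2B, H3 and H4 form the core particle, and H1 binds the DNA that links particles. Most worm histone genes serve DNA replication: they lie in clusters as divergent pairs, lack introns, and their mRNAs end in a stem-loop instead of a poly(A) tail. A smaller number encode replacement histones that are made outside replication, such as H3.3 and H2A.Z, and these genes often have introns. SKN-1, the worm counterpart of mammalian Nrf factors, switches on stress defence genes in the intestine and acts in the embryo to specify endoderm.

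The sequences below serve as examples: the summits of the strongest histone gene regions, a divergent pair with a region, and pairs without one. Of the pairs without one, *his-46* and *his-45* are similar to the pair with a region and nearly identical to another pair. The stretch of *his-50* and *his-49* has an exact copy elsewhere. All are from the RefSeq sequence of WBcel235 (ce11) and run 5′ to 3′. For *his-37* (chrV:9546936-9547086, plus strand) and *his-72* (chrIII:12369107-12369257, minus strand) the 151 bp around the summit of the strongest pooled region are given. For the pairs of an H3 and an H4 gene, the whole stretch between the annotated starts is given on the minus strand, with the H3 gene to the left. These stretches are chrIV:7487993-7488248 for *his-60* and *his-59*, chrIV:11326330-11326587 for *his-46* and *his-45*, and chrV:8847705-8847942 for *his-50* and *his-49*. Capitals mark TATAAA on either strand, the strict SKN-1 core (TGTCAT or TATCAT, either strand), and a 14-letter stretch that 3 of the sequences share.
his-37: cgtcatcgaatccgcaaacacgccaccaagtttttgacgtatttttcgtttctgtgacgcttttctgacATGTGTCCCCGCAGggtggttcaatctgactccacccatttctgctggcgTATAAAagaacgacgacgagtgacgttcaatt
his-72: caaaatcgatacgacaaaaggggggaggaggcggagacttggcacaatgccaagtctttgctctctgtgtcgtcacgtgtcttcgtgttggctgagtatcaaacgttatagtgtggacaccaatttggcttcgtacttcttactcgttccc
his-60/his-59: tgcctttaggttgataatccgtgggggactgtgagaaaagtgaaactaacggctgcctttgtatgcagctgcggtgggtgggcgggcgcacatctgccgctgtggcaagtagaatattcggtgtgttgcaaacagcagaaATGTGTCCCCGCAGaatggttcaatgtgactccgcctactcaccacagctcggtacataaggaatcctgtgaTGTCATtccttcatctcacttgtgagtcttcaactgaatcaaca
his-46/his-45: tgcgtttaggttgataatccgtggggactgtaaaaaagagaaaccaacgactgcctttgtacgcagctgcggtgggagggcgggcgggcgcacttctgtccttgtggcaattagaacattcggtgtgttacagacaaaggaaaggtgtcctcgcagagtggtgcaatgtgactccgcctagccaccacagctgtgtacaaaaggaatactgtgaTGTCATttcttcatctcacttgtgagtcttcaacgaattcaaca
his-50/his-49: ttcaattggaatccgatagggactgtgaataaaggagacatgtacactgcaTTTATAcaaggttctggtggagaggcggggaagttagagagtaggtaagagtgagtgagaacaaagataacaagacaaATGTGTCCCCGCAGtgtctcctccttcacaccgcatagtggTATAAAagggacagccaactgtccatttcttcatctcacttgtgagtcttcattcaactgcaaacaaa

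Most histone genes had no region in their promoter window, and the few that had a strong one were genes of the intron-containing kind. The window covered the 1000 bp before and the 500 bp after a gene's outermost start, and a region counted when its summit lay inside. In the authors' list from the pooled replicates, 15 of the 73 genes held a region (20.5%), where 41.7% of all protein-coding genes did. Of the 10000 strongest pooled regions, at least 1 lay at 7 histone genes (9.59%, against 17.2% of all genes). Among the 1000 strongest the order was the other way round, with 4 genes (5.48%) against 2.48%, and these genes held 3 distinct regions. Where a region was held, its strength was close to that of other genes: the median signal value was 10.8 over the 15 genes and 10.2 over all genes with a region. The signal value is the authors' own, ranks regions within a list, has no stated scale and carries no replicate error. The 15 genes held 16 distinct regions. Some genes held several, up to 4 at *his-35*, and a region in the windows of neighbouring genes counted for each of them.

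Only *his-37* held one of the 97 peaks that passed the authors' threshold on reproducibility, which is 1.37% of the histone genes where 0.371% of all genes had one. In the list of replicate 1, 14 histone genes held a region (42.0% of all genes did), and in that of replicate 2 also 14 (41.6% of all genes). Both lists had a region at 10 of the 73 (13.7%, against 20.9% of all genes), and neither had one at 55 (75.3%, against 37.3%). Each replicate list holds 30000 regions whatever the strength of the weakest, and the pooled list holds 29768, so presence alone does not mark a region as bound. The lists give no read counts, and the depth is unknown.

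**Figure D1:**
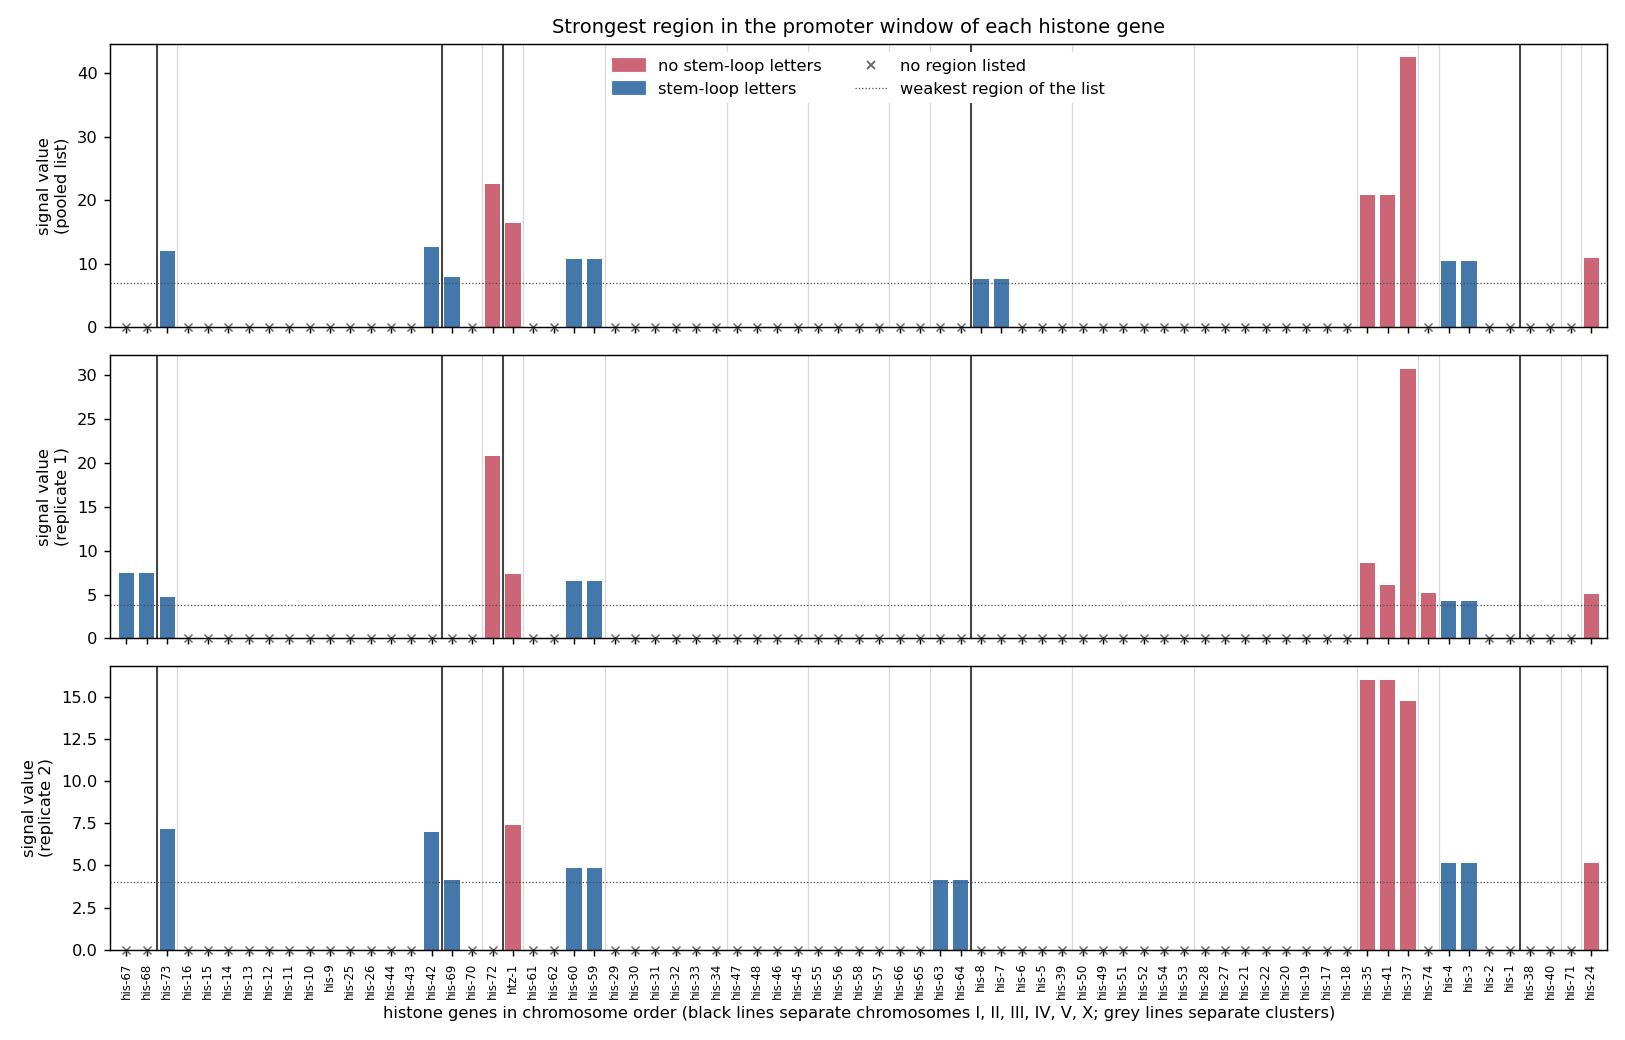
Signal value (linear, authors' scale, 1 panel per list) of the strongest region in the promoter window of each of the 73 histone genes, in chromosome order. Bars are single values, crosses mark genes with no region, and the dotted line is the weakest region of that list; the highest pooled bar is *his-37* at 42.5, and most genes carry a cross in all 3 panels.

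The strongest histone gene region lay just upstream of *his-37* (WBGene00001911), a histone H4 gene on chromosome V at 9547105 to 9547607, plus strand. The pooled region (9546816 to 9547205) had a signal of 42.5 at rank 22, with its summit 94 bp upstream of the start, between protein-coding genes. In replicate 1 the region ranked 14 with a signal of 30.8 and a summit 90 bp upstream. In replicate 2 it ranked 180 with a signal of 14.8 and a summit 68 bp upstream. The summits of the replicates lay 22 bp apart, and both lists placed the region among their 1000 strongest. The gene has an intron, and its 103-residue product is identical to that of all 15 other H4 members, so the protein it makes is ordinary H4. In the *his-37* sequence above, the 14-letter stretch lies 87 to 100 bp before the start and holds the summits of the pooled list and of replicate 1, and TATAAA lies 45 to 50 bp before the start. Summits in these lists are the midpoints of regions of set width and the caller is not given, so their place cannot be taken as a binding site.

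The neighbours of *his-37* also carried regions. *his-35*, encoding an H2A, and *his-41*, encoding an H2B, form a divergent pair upstream of it, and the 3 genes span 2949 bp. Their strongest pooled region (9544656 to 9545045) had a signal of 20.9 at rank 503, and its summit fell in a coding exon of *his-35*, 437 bp downstream of that gene's start. The same region lay 685 bp upstream of the start of *his-41* and counted for it. Replicate 2 had it at rank 106 with a signal of 16.02, while replicate 1 listed no region at that place. The strongest region of replicate 1 in the *his-35* window was another one, 849 bp upstream, with a signal of 8.65 at rank 2048. Its summit fell in a coding exon of *his-41*, and the nearest start was that of the overlapping gene *C50F4.6*. A weaker pooled region of signal 12.2 had its summit between the starts of the pair, 7 bp upstream of *his-41*, and both replicates listed a region there. Replicate 1 had 6.04 at rank 9401, 54 bp downstream of the *his-41* start and its strongest in that window, and replicate 2 had 8.99 at rank 3208. From 1000 bp before the first to 1000 bp after the last of the 3 genes, the pooled list held 6 regions, replicate 1 held 6 and replicate 2 held 7. The H2A made by *his-35* is at most 99.2% identical to another H2A member, and the H2B of *his-41* is 96.7% to 97.6% identical to the other H2B proteins compared, so neither is an exact copy.

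**Figure D2:**
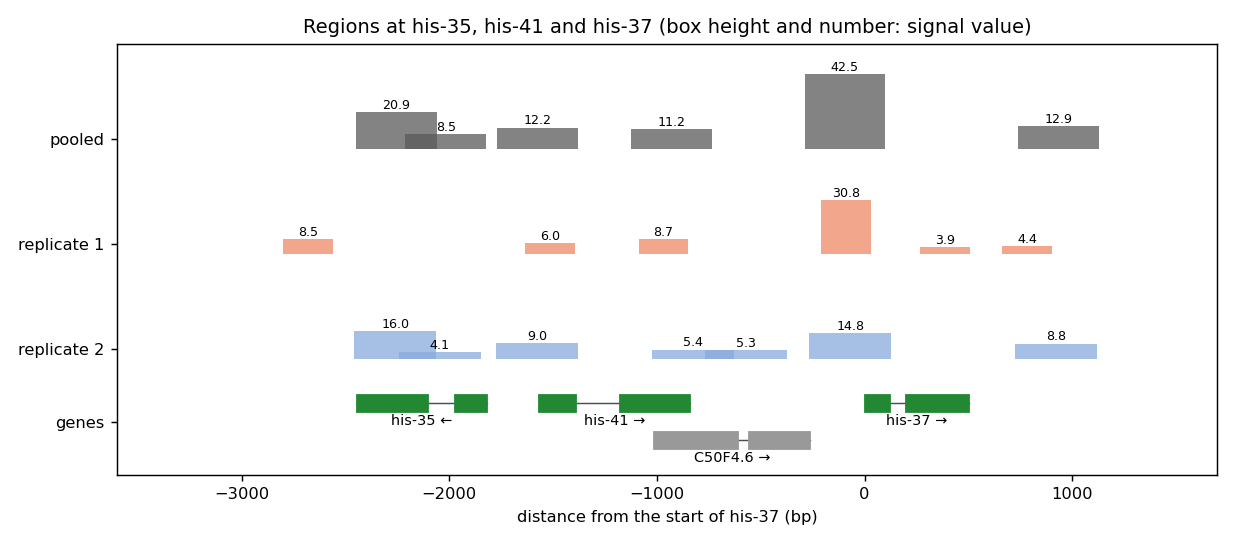
Regions of the pooled list and of each replicate around *his-35*, *his-41* and *his-37*, drawn to scale as distance from the *his-37* start in bp, with box height and number giving the signal value and arrows giving gene direction; a gene that overlaps *his-41*, *C50F4.6*, is in grey. The region upstream of *his-37* appears in all 3 rows (42.5, 30.8 and 14.8), and the region over *his-35* in the pooled list and replicate 2 only.

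Among the replacement histone genes, *his-72* and *htz-1* held the stronger regions. *his-72* (WBGene00001946, chromosome III, 12367475 to 12369050, minus strand) encodes H3.3, the H3 form that is placed on DNA outside replication. Its pooled region had a signal of 22.5 at rank 329, with the summit 132 bp upstream of the start. Replicate 1 listed it at rank 46 with a signal of 20.9 and the same summit, but replicate 2 listed no region in the window. The *his-72* region was thus listed in replicate 1 and the pooled list only. *htz-1* (WBGene00019947, chromosome IV, 4446216 to 4446999, plus strand) encodes H2A.Z, the H2A form found at promoters of many genes. Its pooled region had a signal of 16.4 at rank 1676, with the summit 7 bp upstream of the start. In replicate 1 the strongest region in the *htz-1* window was 314 bp upstream (signal 7.37, rank 4391) and nearer to the start of the neighbour *wapl-1*. In replicate 2 it was 185 bp downstream (signal 7.43, rank 6972). These 2 replicate regions lay 499 bp apart and did not overlap, although a weaker region of replicate 1 did overlap that of replicate 2.

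The other H3.3-type genes had weak regions or none. *his-71* (chromosome X, 7981382 to 7982070), also annotated as an H3.3 gene, had no region in its window in any list, although its window is as unique in sequence as that of *his-72*. *his-70* (chromosome III, 4059715 to 4060119) also had none in any list. *his-74* (chromosome V, 12659704 to 12660330) had none in the pooled list and in replicate 2, and a replicate 1 region of signal 5.23 at rank 14711, whose summit was in its coding exon and nearer to the start of *ccch-3*. *his-69* had a pooled region of 7.89 at rank 23522 in its own coding exon, no region in replicate 1 and one of 4.11 in replicate 2 at another place. Of the 5 H3.3-type genes, 2 thus held a pooled region and 0 held one in both replicates.

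*his-24* (WBGene00001898, chromosome X, 14490094 to 14491119) encodes a linker histone H1. Its pooled region had a signal of 10.8 at rank 10113 with the summit 35 bp upstream of the start. Replicate 1 had 5.11 at rank 15694, and replicate 2 had 5.16 at rank 19202. The value was weak in both replicates but its place was repeated, with summits 76 bp apart. *his-73* (chromosome II, 13183705 to 13183845), a short gene closest to H3, had a pooled region of 11.9 at rank 7152, with 4.72 in replicate 1 and 7.15 in replicate 2. That summit lay 257 bp upstream of *his-73* and only 80 bp upstream of the neighbour *W09H1.4*.

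The replication-type genes with a pooled region were all outside the 1000 strongest regions. The divergent pair *his-60* (H4) and *his-59* (H3), shown above, shared a region of signal 10.7 at rank 10485 between their starts, with 6.60 in replicate 1 and 4.87 in replicate 2. The pair *his-4* (H2B) and *his-3* (H2A) shared one of 10.4 at rank 11563, with 4.30 in replicate 1 and 5.17 in replicate 2. For both pairs the regions of the replicates overlapped. *his-42*, an H3 gene at the edge of the largest cluster, had a pooled region of 12.6 at rank 5718, 857 bp upstream. That region overlaps an annotated small nuclear RNA gene and another non-coding RNA gene, and it was listed in replicate 2 (6.996) and not in replicate 1. The pair *his-8* (H2B) and *his-7* (H2A) had 7.58 at rank 25525, in the coding exon of *his-8*, with no region in either replicate.

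A further 5 genes had a region in a replicate list and not in the pooled list. Besides *his-74*, these were *his-67* and *his-68*, which share a replicate 1 region of 7.42 at rank 4268, and *his-63* and *his-64*, which share a replicate 2 region of 4.12 at rank 28913. Each was seen in 1 replicate.

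Clustered and isolated genes differed in these counts, and so did the sequence of their windows. Of the 67 clustered genes 11 held a pooled region (16.4%), and of the 6 isolated genes 4 did (66.7%), on either side of the 41.7% of all protein-coding genes. Where a region was held, the median signals were 10.7 and 14.2. Of the 15 clusters, 6 had at least 1 gene with a pooled region, and 5 clusters with 26 genes had no region of any list within 1000 bp. Reads from identical gene copies cannot be assigned to 1 place, and neither the read length nor the treatment of such reads is given in the sources used here. The share of 36-base words of each window that occur once in the genome on either strand was therefore computed from the genome sequence. Its median was 18.3% over the clustered genes, 100% over the isolated genes and 100% over all protein-coding genes.

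Every histone gene with a pooled region had a window with more than 50% of its 36-base words unique. The lowest were *his-8* and *his-7* at 50.3%, and the region they share has itself only 37.5% unique words. Below 50% lay 41 histone genes, and 0 of them held a pooled region, against 4.12% of all genes with such windows. Among the 41, *his-63* at 49.1% held a region of the replicate 2 list. A count of 0 of 41 would allow a share of up to 7.32% if the genes were independent, for counting error only. They share regions and sequence copies, so the limit is wider than that. From 50% to under 90%, 8 of 20 histone genes held one (40.0%, against 26.4% of all genes). At 90% or more, 7 of 12 did (58.3%, against 44.7%). Within each of the upper classes the share of histone genes was thus not below that of all genes, while over all 73 it was. The 8 genes held 6 distinct regions, since divergent pairs shared some, and the 7 genes held 10. These are few genes, and they are not independent. The 17 histone genes with no unique word at all had no region in any list, and of 158 other protein-coding genes with none, 0 held a pooled region. The part of sequence copies in the low count was not tested, since the lists keep no reads.

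**Figure D3:**
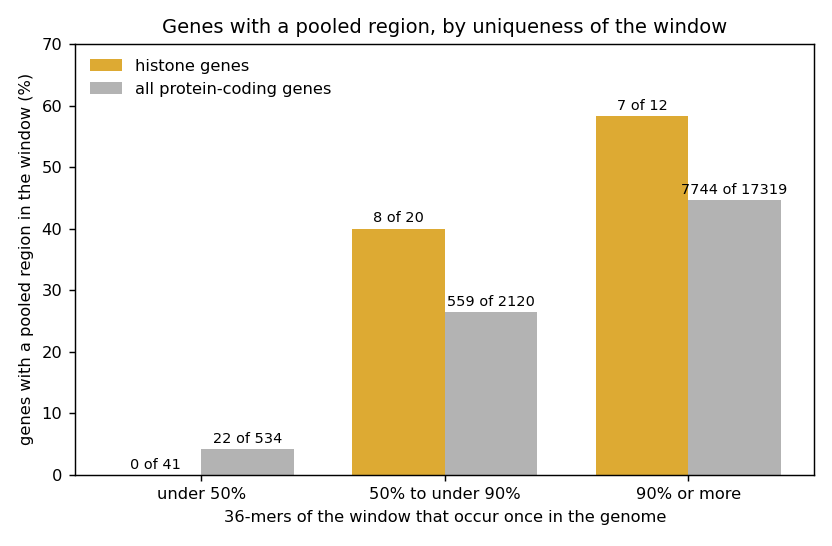
Share of genes with a pooled region in the promoter window (bars from 0, percent), for windows with under 50%, 50% to under 90%, and 90% or more of their 36-base words unique, for histone genes and for all protein-coding genes with the counts above each bar. Histone genes go from 0 of 41 to 8 of 20 and 7 of 12, and the share of all genes also rises from class to class.

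The kind of histone gene moved together with uniqueness and with signal. The letters of the histone 3′ stem-loop were searched as CCTCTT, then 4 bases, then GCC, on the strand of the gene, in the 150 bp after the stop codon; they were chosen after the downstream sequences of the members had been seen. They were found at 64 histone genes, and at 70 of all protein-coding genes (0.350%). The 9 histone genes without these letters were *his-24*, *his-35*, *his-37*, *his-41*, *his-70*, *his-71*, *his-72*, *his-74* and *htz-1*, of which 8 have an intron. Of these 9, 6 held a pooled region (66.7%, against 41.7% of all genes) and 4 a region among the 1000 strongest (44.4%, against 2.48%), with a median signal of 20.9 where a region was held. The 4 were *his-35*, *his-37*, *his-41* and *his-72*, with 3 distinct regions among the 1000 strongest. Of these regions, only that at *his-37* was listed in both replicates. Of the 64 with the letters, 9 held a pooled region (14.1%), and the highest signal was 12.6. Among the 1000 strongest they had 0, against 2.48% of all genes. If the 64 genes were independent, this count would allow a share of up to 4.69%. They share regions and sequence copies, so the limit is wider than that. The 0 therefore does not set them apart from all genes. All 9 genes without the letters had windows of 90.2% or more, and only 3 genes with the letters reached 90%, of which 1 held a region. The type of gene and the uniqueness of its window therefore cannot be told apart over most of the family.

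**Figure D4:**
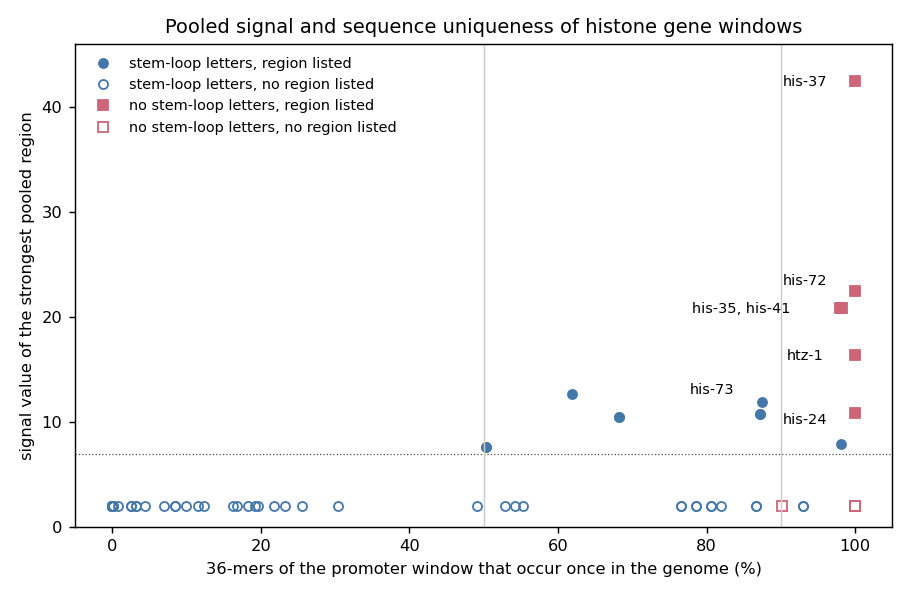
Signal value of the strongest pooled region of each histone gene against the percentage of 36-base words of its window that are unique in the genome; filled symbols are genes with a region, open symbols (drawn at a fixed height near the axis) are genes without one, and colour and shape give the stem-loop letters. All signals above 12.6 belong to genes without the letters, on the right-hand side, and no gene left of 50% has a filled symbol.

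The windows of divergent pairs are often copies of each other. The family holds 31 such pairs: 16 of H2A and H2B, 14 of H3 and H4, and 1 of H2A and H4. In 16 of the 31 the stretch between the starts has an exact copy in another pair, and 4 pairs had a pooled region in the window of both genes. The stretch of *his-50* and *his-49* shown above is identical to that of *his-28* and *his-27*, and their windows have 0% unique words and no region. The stretch of *his-46* and *his-45* is 86.0% identical to that of *his-60* and *his-59*, and 99.6% identical to that of *his-55* and *his-56*. It has no pooled region between the starts, and the windows of its genes have 19.6% and 3.14% unique words, against 87.2% at *his-60* and *his-59*.

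The 14-letter stretch in capitals was found as the longest run of letters common to the *his-37*, *his-60*/*his-59* and *his-50*/*his-49* sequences. Within 300 bp upstream of the start on either strand it occurred exactly at 22 histone genes (30.1%) and at 24 of all protein-coding genes (0.120%). With up to 1 mismatch it occurred at 44 histone genes. *his-37* and *his-24* are the only genes without the stem-loop letters that hold it, and both were counted with a pooled region. At *his-60* and *his-59* it lies 62 bp from the summit of the pooled region. It was held exactly by 6 of the 15 genes with a pooled region (40.0%) and by 16 of the 58 without one (27.6%). With up to 1 mismatch the order was reversed, with 6 of 15 (40.0%) against 38 of 58 (65.5%). *his-37*, *his-60* and *his-59*, among the 6, are genes whose sequences served to find it. In the whole pooled list 6 regions held it, 4 of them at histone genes.

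TATAAA, the core of the TATA box, occurred in the 100 bp upstream of the start on the strand of the gene at 35 of 73 histone genes, against 12.7% of all genes. Of the 14 pairs of H3 and H4 genes, 10 had it at both genes, *his-50* and *his-49* among them. At single-exon histone genes such as *his-14* the annotated gene spans the coding sequence only, so the start is that of the coding sequence. The TATAAA counts were not corrected for this. The strict SKN-1 core was within 100 bp of the summit in 1 of the 16 regions (6.25%), that at *his-73*, against 21.2% of all pooled regions. The region of *his-60* and *his-59* also holds a core, but 134 bp from the summit, so it was not counted. The stretch of *his-46* and *his-45*, without a pooled region, holds one too. Base composition differed as well: median GC content was 45.0% in the 16 regions and 37.2% in all pooled regions, and the core is rich in A and T, so these shares are not corrected for it. Of the 16 summits, 11 lay between protein-coding genes, 3 in a coding exon, 1 in an intron and 1 in a UTR, and for 14 the nearest protein-coding start was that of a histone gene.

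By class of protein, a pooled region was held by 3 of 17 H2A genes, 3 of 17 H2B genes, 3 of 16 H3 genes and 2 of 16 H4 genes. The H4 genes include the highest value of the family, *his-37*. The share over all protein-coding genes was 41.7%. The windows of these classes differed in uniqueness, with a median of 4.43% unique words for H2A, 19.2% for H2B, 39.8% for H3 and 36.3% for H4. Of the remaining genes, the single H1 and the single H2A.Z gene each held one.

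A list of genes that handle histones was set beside the family. It held 27 genes for linker histone relatives, centromeric H3, the stem-loop binding protein CDL-1, histone chaperones and H2A.Z deposition. Of these, 15 held a pooled region (55.6%, against 41.7% of all genes), 8 had one among the 10000 strongest (17.2% of all genes did) and 0 among the 1000 strongest or the thresholded peaks. Their windows are unlike those of most histone genes, since 24 of the 27 have 90% or more of their 36-base words unique. Among the 12 histone genes with such windows the share with a pooled region was 58.3%, and among all genes with such windows it was 44.7%. The 55.6% is over all 27 genes of the list and is not limited to such windows. The highest value of the list was 17.3 in the window of *lin-53*, a histone-binding protein gene, though the nearest start to that region is that of *nra-2*. *xnp-1*, encoding a chromatin remodeller, had 15.1. Next came *asfl-1* with 13.2, in a region whose nearest start is that of *lab-1*, and *hil-5* with 13.0. *cdl-1*, whose product binds the histone mRNA stem-loop, had 12.6 with a summit 5 bp downstream of its start.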

How the data were processed

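Chromatin immunoprecipitation of eGFP-tagged SKN-1 from 2 biological replicates was analysed from region lists that the authors deposited on ce11 (the ce10 lists were not used). Strength is column 7 of those lists, the signal value that the authors deposited. Per the labels' file listing, the replicate and pooled lists hold peaks with background regions and the thresholded list holds those that passed. Caller, aligner, threshold and read depth: not given in the sources used here. Regions were narrower in replicate 1 (median width 240 bp) than in replicate 2 (396 bp) or in the list of the pooled replicates (390 bp).

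Genes came from Ensembl release 115, and symbols from RefSeq by WormBase ID, because Ensembl gives 36 members a name that another member also has. Windows, overlaps and unique words were computed with Python 3.11.15, numpy 2.4.6 and pandas 2.3.3, and stretch identities with edlib 1.3.9. Window assignment and unique words were tested on simulated data. With 1 group there is no test between conditions, and neighbouring genes share regions and sequence, so no test over genes was made; counts stand beside those of all protein-coding genes. Members and lists were chosen with earlier results of these data known. The genes named are those with a pooled region, the isolated genes, and *his-24*, *his-71*, *his-72* and *htz-1*; *his-67*, *his-68*, *his-63*, *his-64*, *his-70*, the pairs shown as sequence copies and the histone handling genes were named after their values were seen. Alternatives covered window, overlap, rank, replicate, start, cluster distance, uniqueness and word length.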

Additional observations from a re-analysis of the deposited data

How the results depend on the processing

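No paired analysis was possible because the series has 1 group and no test was made. With 1 replicate left out, the other's own list gave 14 genes in either case against 15 in the pooled list, 9 to 11 clustered genes, 3 to 5 isolated genes and 15 distinct regions. For thresholded peaks, the 97 strongest regions of 1 replicate lay at 0 genes without replicate 1 and at 2 without replicate 2, against 1. With a window of 2000 bp upstream the count rose to 23 genes, 19 of them clustered. Among the 10000 strongest pooled regions it was 7 genes, 4 clustered, with 8 distinct regions, and 4 genes had one among the 10000 strongest of both replicates. Among the 1000 strongest it was 4 genes, 3 clustered and 1 isolated, with 3 distinct regions. Limited to windows with at least 90% unique words it was 7 of 12 genes, made up of 4 of 7 clustered and 3 of 5 isolated genes. The mean unique share, 40.2% with words of 36 bases, was 43.1% with 50 and 47.7% with 100. By construction, rank limits and uniqueness limits leave fewer regions or genes, and a wider window can only add genes. The cause of these shifts was not tested beyond that. For the 2000 bp window and for the 10000 strongest of both replicates, no share of all protein-coding genes is at hand. Those 2 counts are therefore not read as results about histone genes. The other 32 of 48 alternative values, all of them counts, stayed within 1.5 times the reported one, as did both mean unique shares; among the counts were 2 chosen after seeing the data: clustered genes with the stem-loop letters (8 of 63) and isolated genes without them (3 of 5). The lists hold no counts, so what depth limits cannot be stated.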

Other observations

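Outside the histone family, 493 protein-coding genes had windows with under 50% of their 36-base words unique. Of these, 22 held a pooled region (4.46%), and 2 held one among the 1000 strongest. Of the 41 histone genes with such windows, 0 held one. The difference was not tested.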
